A study of Mus musculus with 160 samples.

Results

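The cerebellum and the cerebral cortex of wild-type (WT) mice were compared in 20 libraries, 10 from the cerebellum and 10 from the cortex, of the 160 libraries in the series. They were chosen by their labels: genotype WT, treatment vehicle, tissue cerebellum or cortex. The mice were C57BL/6J animals of 12 weeks, killed 6 h after they had received vehicle by mouth once, and the specimen names place both tissues on the left side of the brain. Each tissue came from 5 females and 5 males. The series was made to test CHDI-00340246, an inhibitor of kynurenine 3-monooxygenase, in R6/2 mice and their WT controls. A further 20 WT libraries, 10 of each tissue, from animals given 10 mg/kg CHDI-00340246 in place of vehicle were used only to repeat the comparison. The R6/2 animals, the striatum and the liver were not compared here. The labels do not say which parts of the cortex were dissected, or which lobules and how much of the deep nuclei the cerebellum specimens held.

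The cerebellum is built from a few neuron types in a repeated circuit. Granule cells are small, densely packed excitatory neurons whose parallel fibres contact Purkinje cells, the large inhibitory neurons that carry the output of the cerebellar cortex. Inhibitory interneurons of the molecular and granular layers, unipolar brush cells and the Bergmann glia complete it. The cerebral cortex is built mainly from excitatory projection neurons in layers, with inhibitory interneurons born in the ventral forebrain. The cortex arises from the forebrain and the cerebellum from the hindbrain, and each keeps some of its developmental transcription factors in the adult.

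Each cerebellum library summed to between 30.5 and 38.9 M estimated counts and each cortex library to between 32.5 and 44.2 M, where M stands for 1e6. Levels are given as CPM, counts per M after scaling of library sizes by edgeR's TMM factors. These factors were above 1 in 10 of 10 cerebellum libraries and below 1 in 10 of 10 cortex libraries. The 37 genes of the mitochondrial chromosome took 7.15 ± 0.528% of the counts in the cerebellum and 11 ± 0.784% in the cortex (SD, n = 10 each), and the ranges did not overlap. The specimen number of a cortex library exceeds that of a cerebellum library of the same sex by 40, and this offset joins the libraries into 10 pairs that are taken here as animals. The libraries carried the marker genes of their labelled tissue: Pcp2 ran from 144.9 to 232 CPM in the cerebellum and did not exceed 0.564 CPM in the cortex, while Tbr1 ran from 0.257 to 0.786 CPM in the cerebellum and from 124.8 to 155.1 CPM in the cortex.

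Most of the genes that could be tested differed between the tissues. Of 17279 genes, 6935 were higher and 6693 lower in the cerebellum by edgeR's quasi-likelihood test at a Benjamini-Hochberg adjusted p under 0.05, which is 40.1% and 38.7% of the genes tested and 78.9% together. A test against a 2-fold change (edgeR's glmTreat) called 1397 genes higher and 2164 lower, 8.08% and 12.5%, or 20.6% together. The ranges of the 2 tissues did not overlap at all in 46.4% of the genes tested. The share of genes past the 2-fold test was 20.1% of protein-coding genes, 33.4% of lincRNA genes and 28.4% of antisense genes. Protein-coding genes in the group with the longest genomic span, of 10 groups of about equal size, held 11.9% called higher and 21.8% called lower, against 6.31 to 8.49% higher and 9.16 to 13.1% lower in the other 9 groups by span.

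**Figure D1:**
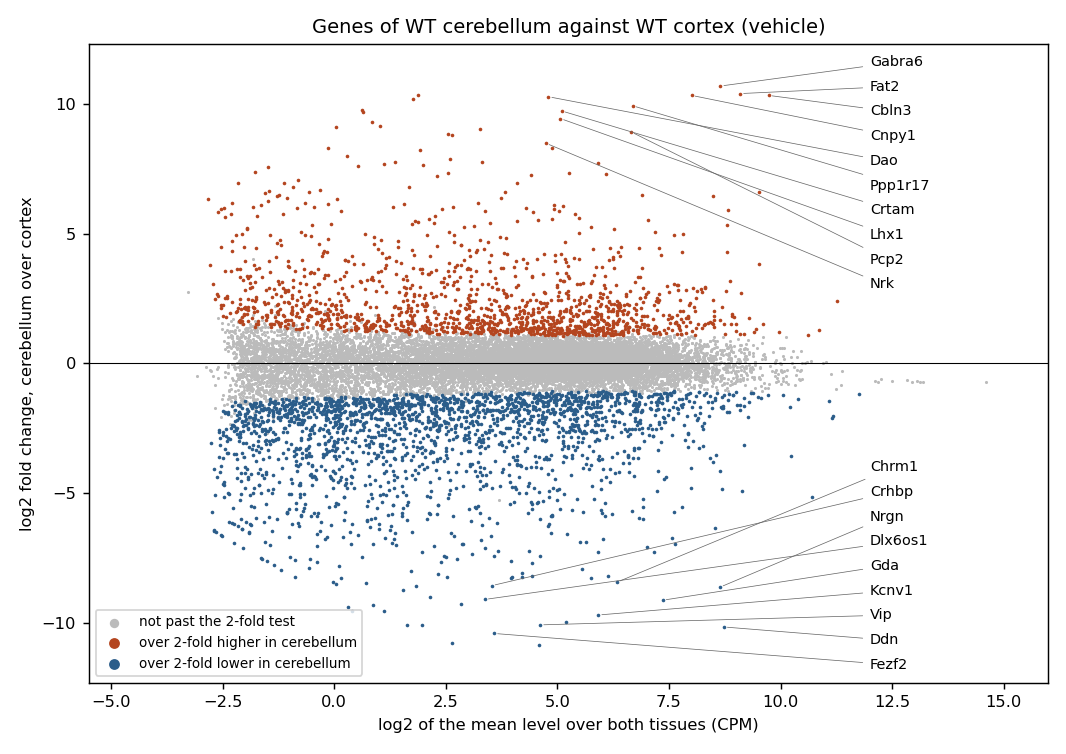
Each point is one tested gene, with the log2 of its mean CPM over both tissues on the horizontal axis and the log2 fold change of cerebellum over cortex on the vertical axis. Names mark genes among the 10 largest increases and the 10 largest decreases of at least 20 CPM in one tissue, which reach 10.68 (Gabra6) and -10.4 (Fezf2).

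The 10 largest increases included genes of granule and Purkinje cells. Gabra6, the GABA-A receptor alpha 6 subunit of granule cells (ENSMUSG00000020428, chromosome 11, 42306437 to 42321072, GRCm38), ran from 736 to 858 CPM with a median of 803 in the cerebellum, against 0.0612 to 1.28 with a median of 0.438 in the cortex. Its log2 fold change was 10.68 ± 0.27 (SE, edgeR adjusted p = 1.9e-17), about 1650-fold. Fat2, an atypical cadherin of granule cells (chromosome 11, 55250609 to 55336564), averaged 1090 ± 76.8 CPM in the cerebellum and 0.819 ± 0.449 CPM in the cortex (SD, n = 10 each). Cbln3, a secreted cerebellin of granule cells (ENSMUSG00000040380, chromosome 14, 55878913 to 55884392), ran from 1540 to 1930 CPM in the cerebellum and from 0.368 to 2.99 CPM in the cortex, a log2 fold change of 10.32 ± 0.26. These genes were near 0 in every cortex library and varied by less than 10% (SD over mean) in the cerebellum. Cnpy1, whose zebrafish homologue takes part in FGF signalling at the midbrain-hindbrain boundary, followed with 514 ± 39.9 CPM in the cerebellum and 0.395 ± 0.399 CPM in the cortex. Dao, the enzyme that breaks down D-serine, had 55.5 ± 3.59 CPM in the cerebellum and at most 0.104 CPM in any cortex library. The Purkinje cell genes Ppp1r17, a phosphatase inhibitor, Lhx1, a transcription factor, and Pcp2 averaged 206, 66.8 and 200 CPM in the cerebellum, against 0.202, 0.0917 and 0.405 CPM in the cortex. Crtam, an immunoglobulin-family adhesion molecule (log2 fold change 9.72 ± 0.15), and Nrk, a kinase (8.48 ± 0.15), completed the 10 largest increases.

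The 10 largest decreases included several genes known from forebrain neurons. Fezf2, a transcription factor of deep-layer projection neurons (ENSMUSG00000021743, chromosome 14, 12342094 to 12348189), was at 0 to 0.0601 CPM in the cerebellum and at 16.8 to 30.5 CPM in the cortex. Ddn, which encodes the postsynaptic protein dendrin (chromosome 15, 98803777 to 98809490), ran from 0.2 to 3.06 CPM in the cerebellum and from 648 to 952 CPM in the cortex, a log2 fold change of -10.15 ± 0.36 (edgeR adjusted p = 1.1e-14). Nrgn, neurogranin, a calmodulin-binding protein of dendrites (ENSMUSG00000053310, chromosome 9, 37544492 to 37552904), had 0.962 to 3.27 CPM in the cerebellum and 583 to 1030 CPM in the cortex (-8.62 ± 0.18). The ranges of these 3 genes were apart, as were those of 46.4% of all genes tested. Vip, a peptide of cortical interneurons (ENSMUSG00000019772, chromosome 10, 5639218 to 5647617), averaged 0.0477 CPM in the cerebellum and 48.9 ± 4.93 CPM in the cortex. The modifying potassium channel subunit Kcnv1 (-9.69 ± 0.16), the guanine deaminase Gda (-9.12 ± 0.25), the binding protein of corticotropin-releasing hormone Crhbp (-8.56 ± 0.2) and the muscarinic receptor Chrm1 (-8.43 ± 0.11) were of the same order. Dlx6os1, a noncoding RNA of interneuron precursors (-9.09 ± 0.31), overlaps Dlx6 on the other strand, and no source used here states whether the counting used strand. Each of these genes differed in the same direction in 10 of 10 animals. The fitted fold changes of genes with a handful of counts in the lower tissue, such as Fezf2 with 5 counts over 10 cerebellum libraries, are estimates and set no bound.

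Compared per length, in the authors' FPKM values (fragments per kilobase and M), the granule cell genes Cbln3 and Gabra6 and the Purkinje cell gene Pcp2 stood at similar levels in the cerebellum, with 372 ± 26, 360 ± 15.2 and 394 ± 57.6 FPKM (SD, n = 10). In the cortex the same genes had 0.281, 0.199 and 0.354 FPKM. Camk2a, the alpha subunit of the calcium and calmodulin-dependent kinase II, had 19.8 ± 1.66 FPKM in the cerebellum and 634 ± 50.9 in the cortex. Nrgn had 1.46 FPKM in the cerebellum and 534 ± 71 in the cortex.

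A few genes of at least 5 CPM in one tissue had no more than 3 counts in any library of the other, where 3 counts correspond to 0.0678 to 0.0984 CPM. There were 6 such genes in the cerebellum and 8 in the cortex. In the cerebellum they were the transcription factors Uncx (12.5 ± 5.17 CPM), Pax3 (7.35 ± 0.515 CPM) and Skor2 (6.75 ± 1.19 CPM), the sodium and glucose transporter Slc5a1 (11.7 ± 1.81 CPM), the small muscle protein Smpx (7.56 ± 0.66 CPM) and the predicted gene Gm13944. Pax3 and Skor2 had 1 count each over the 10 cortex libraries. In the cortex they included Gm11549, a gene known only by a predicted name (48.1 ± 7.23 CPM), Fezf2, the transcription factor Ovol2 (7.77 ± 1.63 CPM), the keratin Krt77 (6.51 ± 1.12 CPM), the T cell receptor segment Trbc2 (5.83 ± 1.1 CPM), the neurokinin B precursor Tac2 (5.1 ± 0.803 CPM) and the predicted gene Gm43517. The number of such genes depends on the limits: with up to 10 counts allowed it was 20 in the cerebellum and 45 in the cortex.

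The promoters of the genes with the largest changes are shown because these genes are close to all-or-none between the tissues. The sequences are from RefSeq (GRCm38.p6), run 5′ to 3′ on the strand of the gene from 250 bases before to 50 bases after the annotated start, and belong to the 3 largest increases and the 3 largest decreases whose start lies within 200 bases of the GENCODE gene start and that are in the table. Capitals mark an E-box of the form CAGATG or CAGCTG on either strand, letters that basic helix-loop-helix factors such as the neurogenic ones recognise. The first 3 genes are higher in the cerebellum and the last 3 lower.
Gabra6 (chr11:42321023-42321322, minus strand): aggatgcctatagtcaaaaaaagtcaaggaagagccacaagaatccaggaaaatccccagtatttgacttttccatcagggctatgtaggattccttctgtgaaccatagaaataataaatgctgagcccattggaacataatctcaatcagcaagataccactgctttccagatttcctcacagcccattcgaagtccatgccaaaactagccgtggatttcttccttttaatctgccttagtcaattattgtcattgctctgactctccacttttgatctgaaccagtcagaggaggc
Cnpy1 (chr5:28245739-28246038, minus strand): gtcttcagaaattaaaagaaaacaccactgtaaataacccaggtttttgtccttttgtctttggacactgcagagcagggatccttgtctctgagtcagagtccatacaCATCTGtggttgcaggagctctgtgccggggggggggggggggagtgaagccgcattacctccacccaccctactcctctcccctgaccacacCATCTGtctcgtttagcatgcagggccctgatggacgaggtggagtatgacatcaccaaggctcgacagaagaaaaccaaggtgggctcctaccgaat
Cbln3 (chr14:55884207-55884506, minus strand): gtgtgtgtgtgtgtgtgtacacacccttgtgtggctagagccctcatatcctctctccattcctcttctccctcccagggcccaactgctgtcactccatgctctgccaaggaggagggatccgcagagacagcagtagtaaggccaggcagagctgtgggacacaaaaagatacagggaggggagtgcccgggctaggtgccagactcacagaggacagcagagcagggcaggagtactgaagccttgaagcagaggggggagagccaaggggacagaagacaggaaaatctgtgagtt
Vip (chr10:5638968-5639267, plus strand): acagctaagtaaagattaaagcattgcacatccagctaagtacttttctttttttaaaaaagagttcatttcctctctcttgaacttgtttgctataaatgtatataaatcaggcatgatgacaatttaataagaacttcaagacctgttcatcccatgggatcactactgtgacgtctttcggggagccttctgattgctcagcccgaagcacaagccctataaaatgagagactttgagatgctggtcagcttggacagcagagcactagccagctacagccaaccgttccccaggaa
Nrgn (chr9:37552696-37552995, minus strand): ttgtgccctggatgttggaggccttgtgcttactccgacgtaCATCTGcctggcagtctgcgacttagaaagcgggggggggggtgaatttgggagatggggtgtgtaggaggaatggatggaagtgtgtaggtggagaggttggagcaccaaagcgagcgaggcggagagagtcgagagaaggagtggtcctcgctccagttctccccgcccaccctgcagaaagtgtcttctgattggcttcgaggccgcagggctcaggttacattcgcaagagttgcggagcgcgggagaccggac
Crhbp (chr13:95444782-95445081, minus strand): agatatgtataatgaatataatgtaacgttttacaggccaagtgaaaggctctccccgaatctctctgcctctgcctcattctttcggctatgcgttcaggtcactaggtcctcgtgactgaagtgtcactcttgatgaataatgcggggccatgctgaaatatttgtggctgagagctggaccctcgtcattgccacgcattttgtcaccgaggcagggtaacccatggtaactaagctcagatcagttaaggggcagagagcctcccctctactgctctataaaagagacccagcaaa
Only Cnpy1, with 2 matches, and Nrgn, with 1, of these 6 windows hold such a match. Over all genes, CAGATG (or its reverse complement) was present in 14.4% of 959 promoters of genes over 2-fold higher in the cerebellum, 15.8% of 1526 promoters of genes over 2-fold lower, and 12.4% of the 12558 promoters of genes tested. CAGCTG was present in 15.4%, 20.1% and 15.7% of them, and the cyclic AMP response element TGACGTCA in 1.77%, 1.97% and 2.99%. A match is only a string of letters in the window, and these shares were not tested.

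Genes of granule and Purkinje cells were mostly higher in the cerebellum. In bulk tissue fewer cells of a type and less RNA per cell cannot be told apart, so each value below is a level in the tissue. The counts of each list stand beside 40.1% of all genes called higher and 38.7% lower, and 8.08% and 12.5% past the 2-fold test. Of 30 granule cell genes, 26 were higher and 4 lower, 25 and 3 of them past the 2-fold test, with a median log2 fold change of 3.92, where the median over all 17279 genes was 0.02. The lower members included Galntl6, a glycosyltransferase (1.37 ± 0.293 CPM in the cerebellum and 10.6 ± 1.48 CPM in the cortex), and Slc17a7, the vesicular glutamate transporter that cortical projection neurons use too (428 ± 36.6 CPM and 1080 ± 124.2 CPM). Of 37 Purkinje cell genes, 34 were higher and 3 lower (median 2.89). Calb1, the calcium buffer calbindin, had 956 ± 71.8 CPM in the cerebellum and 145.98 ± 12.6 CPM in the cortex. The lower members included Bcl11a (13.3 ± 1.02 CPM in the cerebellum and 86.3 ± 4.06 CPM in the cortex), a transcription factor also of deep-layer cortical neurons, and Itpka, an inositol trisphosphate kinase (-1.52 ± 0.06).

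Interneuron and unipolar brush cell genes of the cerebellum were divided, with 13 of 19 higher and 6 lower. Slc6a5, the glycine transporter of Golgi cells and other glycinergic neurons, had 47.4 to 69 CPM in the cerebellum and 0.0579 to 0.307 CPM in the cortex. Tfap2b and Tfap2a, transcription factors of cerebellar inhibitory precursors, were higher by 5.57 ± 0.14 and 5.55 ± 0.18 on the log2 scale. The largest differences the other way were those of Cbln2 (-7.69 ± 0.22) and the serotonin receptor Htr2a (0.851 ± 0.144 CPM in the cerebellum and 17.4 ± 7.07 CPM in the cortex). Of 18 genes of Bergmann glia and cerebellar astrocytes, 14 were higher and 3 lower (median 0.98). Gdf10, a growth factor of Bergmann glia, had 150 ± 18.9 CPM in the cerebellum and 4.22 ± 0.795 CPM in the cortex, and A2m, the protease inhibitor alpha 2 macroglobulin, 88 ± 10.9 CPM and 1.8 ± 0.881 CPM. Npy, which cortical interneurons also make, was lower (5.53 ± 1.18 CPM in the cerebellum and 65.6 ± 9.32 CPM in the cortex), as was the metabotropic glutamate receptor Grm3 (-1.52 ± 0.06).

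Genes of cortical projection neurons were mostly lower in the cerebellum: 29 of 39 were lower and 10 higher, with a median log2 fold change of -3.24. Tbr1, a transcription factor of deep-layer neurons, averaged 0.474 ± 0.156 CPM in the cerebellum and 139.2 ± 8.87 CPM in the cortex (-8.19 ± 0.09, edgeR adjusted p = 2.1e-24), and Emx1, which marks the dorsal forebrain lineage, 0.0601 CPM and 11.3 ± 2.2 CPM. Higher members included Etv1, a transcription factor of layer 5 and of granule cells, had 521 ± 42 CPM in the cerebellum and 72.4 ± 9.94 CPM in the cortex, and Calb1 is given above. Of 35 genes of cortical interneurons, 23 were lower and 8 higher (median -3.57). Sst, the somatostatin precursor, had 0.2 to 1.77 CPM in the cerebellum and 98.2 to 155.2 CPM in the cortex. The calcium-binding proteins that mark interneuron classes in the cortex were higher in the cerebellum, Calb2 (378 ± 20.2 CPM, against 12.2 ± 4.92 CPM in the cortex) and Pvalb (461 ± 45.4 CPM, against 61.6 ± 12.4 CPM). Dlx2, a transcription factor of their precursors, had 1 count in all cerebellum libraries together and 4.3 ± 0.642 CPM in the cortex.

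The developmental transcription factors divided by list. Of 43 hindbrain and cerebellar factors, 39 were higher and 3 lower in the cerebellum, 36 and 3 past the 2-fold test, with a median of 4.49. Of 33 forebrain factors, 27 were lower and 4 higher, 24 and 1 past the 2-fold test, with a median of -5.56. That median moved under several settings. It was -4.75 in females alone, -4.98 in males alone and -4.92 in the CHDI-00340246 animals. It was -4.41 without the 3 cortex libraries with the highest levels of striatal genes, and -6.15 without the 6 cerebellum libraries with high Ttr, both described below. Members against the majority included Nr2e1 (0 to 0.101 CPM in the cerebellum and 11.7 to 16.4 CPM in the cortex), a nuclear receptor of neural progenitors, and Meis2 (6.47 ± 3.16 CPM and 93.5 ± 27.3 CPM) on the hindbrain list. On the forebrain list they included Zbtb18 (793 ± 70.4 CPM in the cerebellum and 360 ± 26.8 CPM in the cortex), a repressor of many neuron types, and Neurod2 (88.2 ± 11.9 CPM and 55.2 ± 6.24 CPM), a neurogenic factor that granule cells share.

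**Figure D2:**
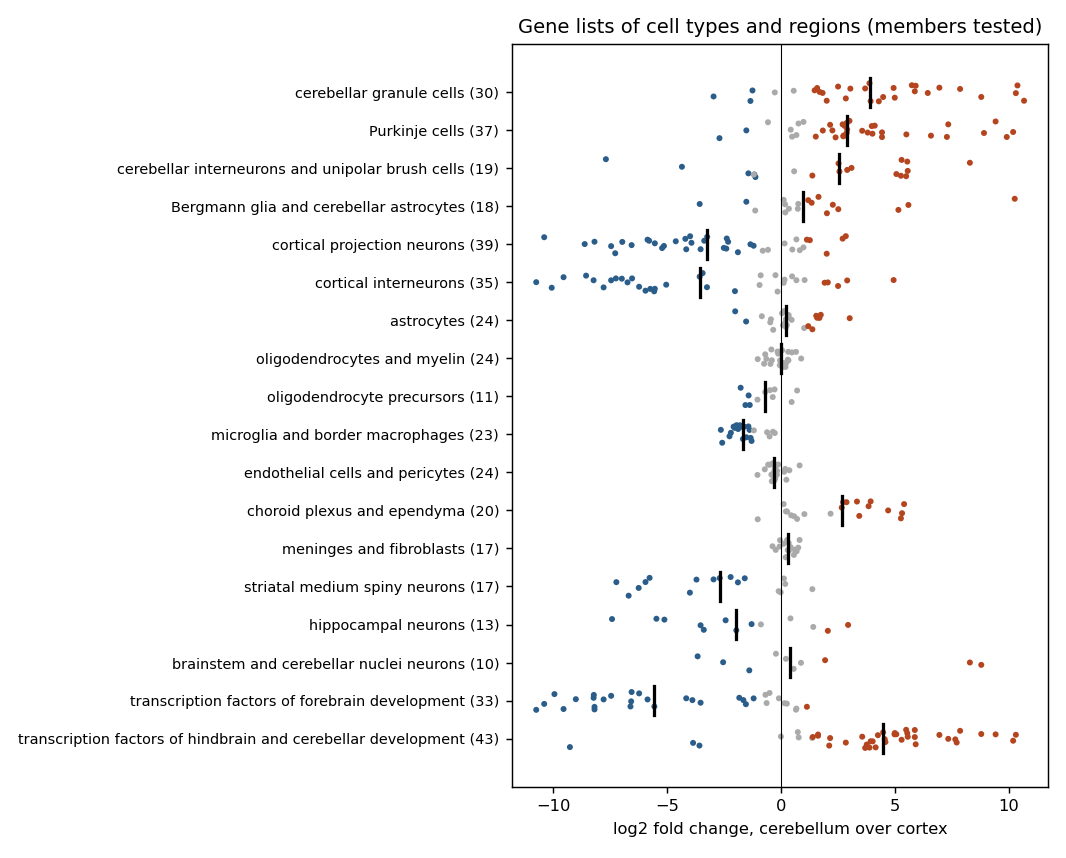
Each point is one gene of the list named at the left, placed by its log2 fold change of cerebellum over cortex; the number tested is in brackets and the black bar is the median of the list. Coloured points passed the 2-fold test; granule cell, Purkinje cell and hindbrain lists lie to the right (medians 3.92, 2.89 and 4.49), and projection neuron, cortical interneuron and forebrain lists to the left (-3.24, -3.57 and -5.56).

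Of 23 genes of microglia and border macrophages, the immune cells of the brain, 21 were lower in the cerebellum and 0 higher, 18 of them past the 2-fold test (median -1.67). P2ry12, the purinergic receptor of resting microglia, ran from 5.68 to 10.5 CPM in the cerebellum and from 29.9 to 44.1 CPM in the cortex. Fcrls (3.63 ± 0.696 CPM in the cerebellum and 22.5 ± 3.02 CPM in the cortex), Aif1 (1 ± 0.18 CPM and 6.01 ± 1.37 CPM) and Gpr34 (3.03 ± 0.42 CPM and 14 ± 1.45 CPM) were lower by 2.64, 2.58 and 2.2 on the log2 scale. Of 11 oligodendrocyte precursor genes, 8 were lower and 2 higher (median -0.69). The receptor Pdgfra had 25.3 ± 2.91 CPM in the cerebellum and 65.5 ± 5.36 CPM in the cortex, and the protocadherin Pcdh15 4.13 ± 0.542 CPM and 14.1 ± 1.62 CPM, while the matrix protein Vcan was higher (0.71 ± 0.06). The 24 genes of oligodendrocytes and myelin were split, 8 higher and 7 lower with 0 past the 2-fold test. Fewer were called higher in settings with fewer libraries: 4 in females alone, 5 in males alone, and 3 without the 6 cerebellum libraries with high Ttr described below. Trf, transferrin, was higher (377 ± 57.6 CPM in the cerebellum and 204 ± 37 CPM in the cortex), and Opalin (-1.02 ± 0.16), a myelin membrane protein, and the transcription factors Olig1 (-0.74 ± 0.09) and Olig2 (-0.69 ± 0.06) were lower.

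Of 24 astrocyte genes, 15 were higher and 6 lower (median 0.24). Agt, angiotensinogen, had 56.1 ± 7.07 CPM in the cerebellum and 7.12 ± 3.14 CPM in the cortex. S100b (1.75 ± 0.05) and the bicarbonate transporter Slc4a4 (1.69 ± 0.06) were also higher. Slc1a2, the main glutamate transporter of forebrain astrocytes, was lower at 925 ± 89.5 CPM in the cerebellum, against 3720 ± 287 CPM in the cortex, and so was Mfge8 (-1.53 ± 0.06), a secreted glycoprotein. Of 24 genes of endothelial cells and pericytes, 15 were lower and 4 higher with 0 past the 2-fold test (median -0.29). With blocks of 40 consecutive library numbers as a covariate, 9 were lower. The share called was 79.2%, near the 78.9% of all genes. Cspg4 of pericytes and precursors was lower (-1.03 ± 0.06) and Pltp, a lipid transfer protein, higher (0.82 ± 0.06). Of 17 meningeal and fibroblast genes, 6 were higher and 1 lower, against 11 higher and 0 lower in the CHDI-00340246 animals. Igf2 (86.6 ± 33.1 CPM in the cerebellum and 48.3 ± 11.9 CPM in the cortex) and the proteoglycan Dcn (28.5 ± 6.44 CPM and 16.8 ± 6.32 CPM) led them. Their calls did not hold without the 6 cerebellum libraries described next (0.47 and 0.71, edgeR adjusted p = 0.075 and 0.056). They did not hold in males alone either (0.53 and 0.64, edgeR adjusted p = 0.13 and 0.12). Both settings use fewer libraries. The transcription factor Foxc1, the 1 lower gene, had 3.35 ± 0.677 CPM in the cerebellum and 4.35 ± 0.683 CPM in the cortex. Its call did not hold with the blocks of library numbers as a covariate (edgeR adjusted p = 0.18).

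Genes of neighbouring tissues differed between libraries of the same group. Of 20 choroid plexus and ependyma genes, 16 were higher and 1 lower in the cerebellum (median 2.7). Their summed level ran from 135.01 to 3730 CPM in the cerebellum and from 260 to 336 CPM in the cortex. Ttr, transthyretin, the main product of the choroid plexus, was at 247 to 2220 CPM in 6 cerebellum libraries, at 2.67 to 12.8 CPM in the other 4, and at 8.87 to 30.8 CPM in the cortex. The 6 libraries came from 4 females and 2 males. Without them Ttr had a log2 fold change of -1.75, and the list held 4 genes higher and 11 lower (median -0.96). The 6 were left out by their Ttr level, and no cortex library was left out. These values therefore cannot show a lower level in the cerebellum. Otx2, a transcription factor of the choroid plexus that is also made by granule cells, was at 9.82 to 21 CPM in the cerebellum and at 0.0962 to 0.9 CPM in the cortex in all libraries, while the transporter Slc4a5 ran from 1.49 to 20.4 CPM and the claudin Cldn2 from 0.661 to 11.8 CPM over the cerebellum libraries. Rsph1, a cilium protein, was the 1 lower gene (-1.02 ± 0.19).

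The cortex libraries differed in genes of striatal medium spiny neurons. Of 17 such genes, 12 were lower in the cerebellum and 1 higher (median -2.69), with summed levels of 451 to 538 CPM in the cerebellum and 512 to 1460 CPM in the cortex. Adora2a, the adenosine receptor of the indirect pathway, was at 1.32 to 2.06 CPM in the cerebellum, and at 9.68, 20.5 and 26.5 CPM in 3 cortex libraries and 1.5 to 3.31 CPM in the other 7. The dopamine receptor Drd1 was at 0.15 to 0.631 CPM in the cerebellum, and at 23.5, 38.5 and 43.3 CPM in the same 3 cortex libraries and 11.1 to 12.9 CPM in the other 7. Without the 3 libraries the list kept its count of 12 lower genes, 4 were higher and the median was -1.7. The tachykinin precursor Tac1 (0.358 ± 0.254 CPM in the cerebellum and 21.7 ± 17.3 CPM in the cortex) and the dynorphin precursor Pdyn (0.173 ± 0.189 CPM and 25.4 ± 6.84 CPM) were lower, and Syndig1l was higher (15.8 ± 2.49 CPM and 6.06 ± 4.62 CPM). Of 13 genes used as hippocampal markers, 9 were lower and 3 higher. Cpne7 (-7.42 ± 0.28) and Neurod6 (-3.53 ± 0.13), which cortical neurons also express, were among the lower ones, and Prox1 (72.7 ± 7.57 CPM in the cerebellum and 17.4 ± 1.08 CPM in the cortex), a transcription factor, was higher. Only 10 of 26 brainstem and nuclear neuron genes passed the filter, 4 higher and 3 lower. Beside Uncx and Slc6a5, Spp1, osteopontin, was higher (30.1 ± 9.33 CPM in the cerebellum and 7.87 ± 2.8 CPM in the cortex), and the choline transporter Slc5a7 was lower (0.277 ± 0.129 CPM and 3.57 ± 4.19 CPM). Traces of cerebellar genes in the cortex, up to 1.28 CPM for Gabra6 and 2.99 CPM for Cbln3, were small beside the cerebellar levels. The part of these genes in other results was not tested beyond the values without those libraries.

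**Figure D3:**
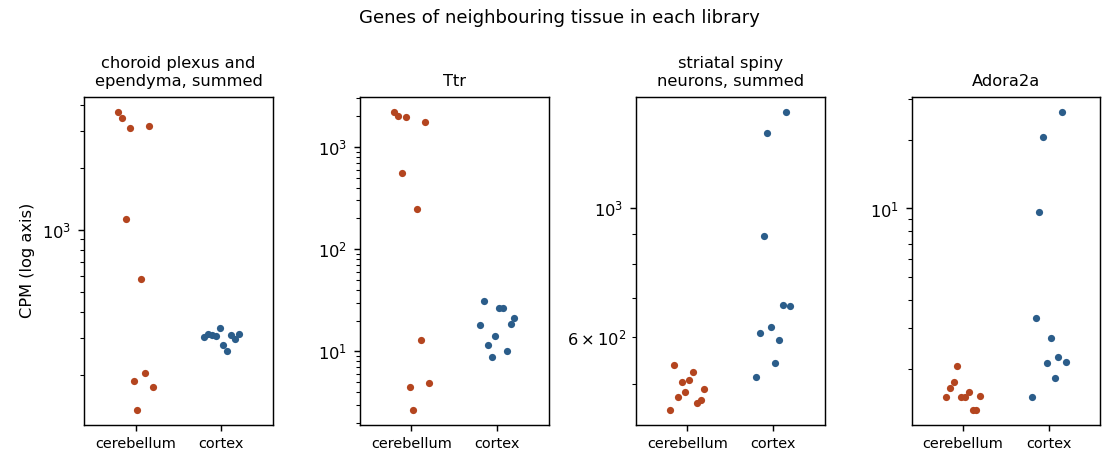
Each point is one library, with the cerebellum at the left and the cortex at the right of each panel and CPM on a log axis. The 6 cerebellum libraries with high Ttr stand at 247 CPM or more, and 3 cortex libraries at 9.68 CPM or more for Adora2a; the summed lists separate the same libraries.

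The GABA-A receptor, the chloride channel of fast inhibition, is assembled from 5 subunits, and its alpha subunits differed in direction. Of 22 GABA-A and glycine receptor subunits tested, 6 were higher and 14 lower in the cerebellum (median -0.54). Among the alpha subunits, Gabra6 is given above, and Gabra3 had 15.2 ± 1.7 CPM in the cerebellum and 176 ± 18.5 CPM in the cortex (-3.54 ± 0.07), Gabra4 36.9 ± 2.24 CPM and 135.9 ± 10.5 CPM, and Gabra5 1.54 ± 0.873 CPM and 54.9 ± 2.89 CPM (-5.15 ± 0.23). Gabra2 was lower by a smaller margin (19.3 ± 5.96 CPM in the cerebellum and 36.7 ± 6.21 CPM in the cortex). The delta subunit of extrasynaptic receptors, Gabrd, was higher (190 ± 12.6 CPM in the cerebellum and 68.1 ± 5.09 CPM in the cortex). Of the beta subunits, Gabrb2 was higher (0.93 ± 0.13) and Gabrb1 did not pass (-0.17 ± 0.08, edgeR adjusted p = 0.06), although it did with DESeq2 (0.034). Gabrg3 was far lower (2.26 ± 0.332 CPM and 36.9 ± 5.25 CPM) and Gabrg1 lower (-0.76 ± 0.08). The glycine receptor subunit Glra1 was higher (3.31 ± 2.57 CPM and 0.354 ± 0.2 CPM) and Glra3 lower (-4.47 ± 0.29).

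Glutamate receptor subunits also went both ways, with 13 of 36 higher and 20 lower (median -0.38). Among the AMPA receptor subunits, which carry fast excitation, Gria4 had 583 ± 24.4 CPM in the cerebellum and 143.4 ± 13.2 CPM in the cortex (2.02 ± 0.05) and Gria1 547 ± 34.8 CPM and 323 ± 31.5 CPM, while Gria2 (-0.62 ± 0.04) and Gria3 (-1.14 ± 0.04) were lower. Among the NMDA receptor subunits, Grin2b ran from 23.9 to 36 CPM in the cerebellum and from 352 to 572 CPM in the cortex (-4.02 ± 0.1, edgeR adjusted p = 1.5e-18). Grin2c ran the other way, from 282 to 422 CPM in the cerebellum and from 34.8 to 48.2 CPM in the cortex (3.05 ± 0.06, adjusted p = 2.2e-20). The ranges of both genes were far apart, where 46.4% of all genes tested had ranges without overlap. The obligatory subunit Grin1 differed by -0.28 ± 0.07 and Grin2a by -0.32 ± 0.14 (adjusted p = 0.00069 and 0.039). The Grin2a call did not hold with the animal as a block (-0.29, adjusted p = 0.062), and that of Grin1 not in FPKM (-0.14, adjusted p = 0.061). Grin2d did not pass (-0.07 ± 0.13), and its sign turned when libraries were scaled by totals alone (0.02). Grin3b was higher (2.46 ± 0.22) at low level (1.16 ± 0.27 CPM in the cerebellum and 0.212 ± 0.0901 CPM in the cortex), and Grin3a lower (-0.54 ± 0.07).

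Of the kainate receptor subunits, Grik1 (1 ± 0.06) and Grik2 (1.03 ± 0.05) were higher, Grik4 (-0.44 ± 0.06) and Grik5 (-1.47 ± 0.09) lower, and Grik3 did not pass (-0.06 ± 0.07, edgeR adjusted p = 0.44), with the opposite sign by library totals (0.04). The delta receptors bind cerebellins across the synapse. Grid1, one of them, had 23.3 ± 3 CPM in the cerebellum and 56.7 ± 6.24 CPM in the cortex (-1.28 ± 0.07). The metabotropic receptors Grm4, presynaptic on parallel fibres (422 ± 64.9 CPM in the cerebellum and 21.4 ± 3.47 CPM in the cortex), and Grm5 (10.1 ± 1.04 CPM and 201 ± 19.7 CPM) went opposite ways. The auxiliary subunits Cnih3 (-4.84 ± 0.1) and Neto1 (-4.86 ± 0.1) were lower.

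The 4 cerebellins, secreted proteins that bridge presynaptic neurexins and delta receptors, were divided between the tissues. Cbln1 (649 to 806 CPM in the cerebellum and 3.71 to 17.1 CPM in the cortex, 6.45 ± 0.3) and Cbln3 were higher. Cbln2 (0.063 to 0.429 CPM in the cerebellum and 26.6 to 56.8 CPM in the cortex) and Cbln4 (0.4 to 4.77 CPM and 11.3 to 29 CPM, -3.02 ± 0.43) were lower. The ranges of all 4 were apart, as were those of 46.4% of all genes tested. Of 31 cerebellins, neurexins and partners tested, 9 were higher and 19 lower (median -0.71), with the pentraxin Nptx2 at 0.88 ± 0.269 CPM in the cerebellum and 42.2 ± 9.14 CPM in the cortex.

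**Figure D4:**
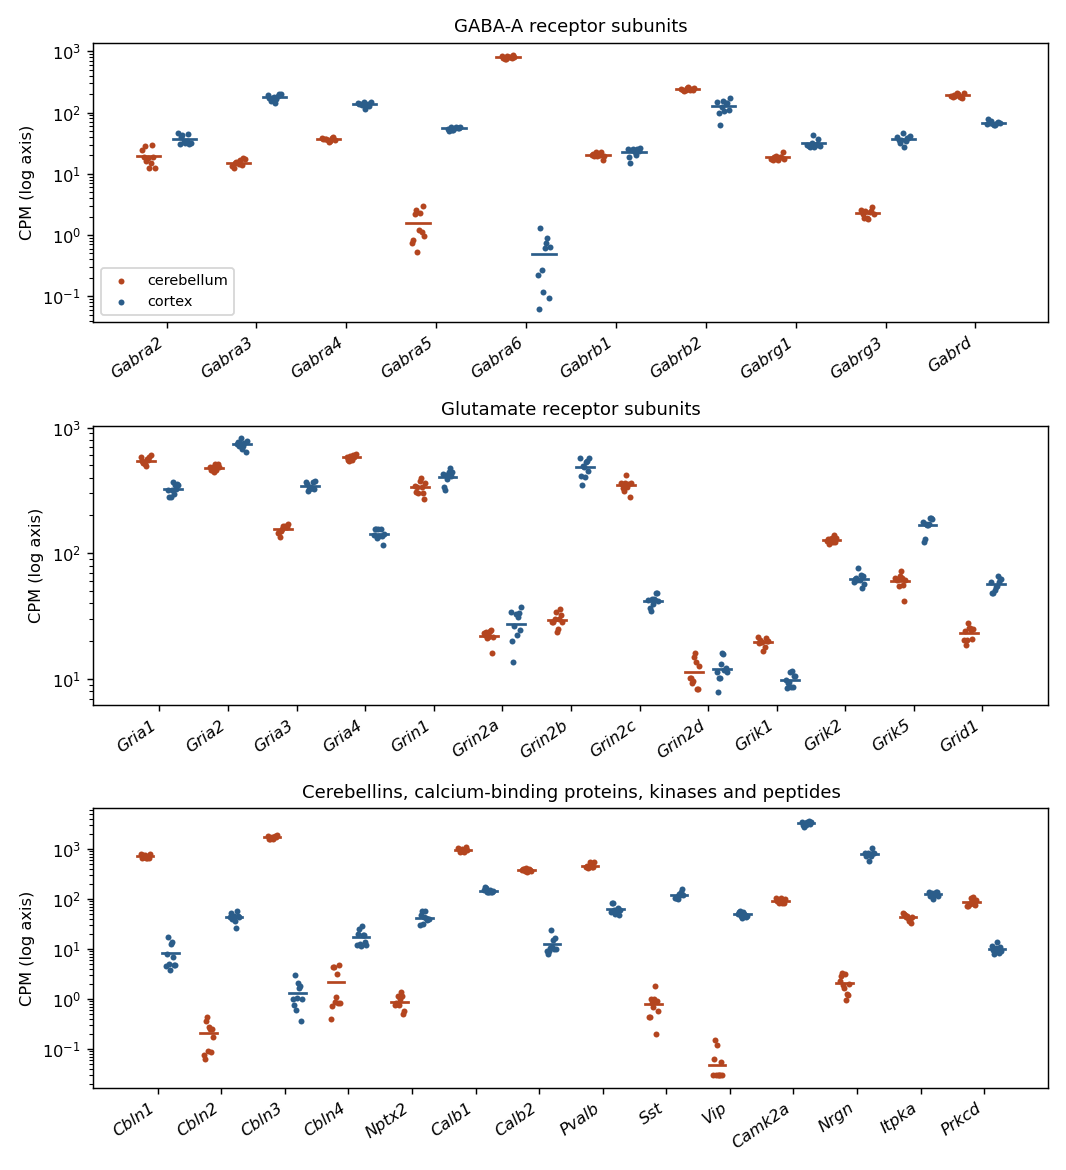
Points are single libraries, with the cerebellum at the left and the cortex at the right of each gene, CPM on a log axis, and horizontal bars for the mean of 10 libraries; values under 0.03 CPM are drawn at 0.03. Within a family some subunits are higher in the cerebellum (Gabra6, Grin2c, Cbln3) and others lower (Gabra5, Grin2b, Grid1, Cbln2).

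Of 33 calcium channel and release genes, 18 were higher and 12 lower (median 0.17). The calcium pump Atp2a3 had 281 ± 27 CPM in the cerebellum and 8.35 ± 0.727 CPM in the cortex (5.07 ± 0.06), and calsequestrin Casq2 35.3 ± 2.3 CPM and 2.17 ± 0.449 CPM. The low-threshold channel Cacna1h (-3.68 ± 0.16) and the auxiliary subunit Cacnb1 (-2.58 ± 0.06) were lower. Of 34 calcium-binding proteins and calmodulin kinases, 12 were higher and 20 lower (median -0.6). Camk2a ran from 80.7 to 103.7 CPM in the cerebellum and from 2710 to 3590 CPM in the cortex (-5.14 ± 0.06, edgeR adjusted p = 6.6e-24), and the kinase-like protein Camkv from 2.32 to 5.92 CPM and from 309 to 422 CPM. Prkcd, a protein kinase C, was higher (3.1 ± 0.1).

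Of 69 potassium channel genes, 43 were lower and 23 higher, 27 and 9 past the 2-fold test (median -0.38). The inward rectifier Kcnj4 (0.393 ± 0.276 CPM in the cerebellum and 93.7 ± 16.4 CPM in the cortex) and the modifying subunits Kcnf1 (-6.78 ± 0.12) and Kcng1 (-6.63 ± 0.16) were lower. The modifying subunit Kcng4 was higher (134.5 ± 20.3 CPM in the cerebellum and 8.45 ± 1.8 CPM in the cortex). Of 16 sodium channel genes, 7 were lower and 6 higher (81.2% called, against 78.9% of all genes), with a median of -0.08 that became 0.02 by library totals. Scn3b (4.03 ± 0.46 CPM in the cerebellum and 105.9 ± 12.9 CPM in the cortex), Scn3a (3.22 ± 0.741 CPM and 55.5 ± 5.9 CPM) and the channel modulator Fgf13 (-2.85 ± 0.05) were lower, and Fgf14 (0.76 ± 0.06) and Scn2b (0.73 ± 0.04) were higher.

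Of 53 genes of synaptic vesicles and release, 28 were lower and 19 higher (median -0.27). Stx1a, a syntaxin of the fusion machinery, ran from 1.37 to 2.48 CPM in the cerebellum and from 232 to 305 CPM in the cortex (-7.28 ± 0.08, edgeR adjusted p = 2.1e-24). Snap25, its partner in the same complex, had 2400 ± 107.3 CPM and 2950 ± 272 CPM (-0.3 ± 0.05). The calcium sensors Doc2a (-7.61 ± 0.15) and Syt5 (-5.24 ± 0.1) were lower and Syt9 higher (3.06 ± 0.07).

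Receptors for monoamines, acetylcholine, opioids and cannabinoids were mostly lower in the cerebellum. Of 45 tested, 37 were lower and 8 higher, 32 and 3 past the 2-fold test, with a median of -2.41. Beside Chrm1, the serotonin receptors Htr1a (0.174 ± 0.0782 CPM in the cerebellum and 19.5 ± 3.27 CPM in the cortex) and Htr3a (0.0372 CPM and 4.38 ± 0.651 CPM) and the nicotinic subunit Chrna5 (-6.02 ± 0.25) were lower. The cannabinoid receptor Cnr1 (488 to 604 CPM in the cerebellum and 142.3 to 216 CPM in the cortex, 1.66 ± 0.07) and the nicotinic subunit Chrnb4 (2.33 ± 0.938 CPM and 0.144 ± 0.133 CPM) were higher. Neuropeptide genes followed, with 24 of 29 lower and 3 higher (median -2.02). Cartpt (-6.76 ± 0.38) was lower, and the neurexin ligand Nxph4 (2.01 ± 0.11) and the precursor of neuropeptide FF, Npff (1.2 ± 0.12), were higher.

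Second-messenger genes were mixed. Of 22 regulators of G protein signalling, 15 were lower and 6 higher (median -1.29). Rgs14 (0.136 ± 0.085 CPM in the cerebellum and 37 ± 7.24 CPM in the cortex), Rgs4 (17.5 ± 3.15 CPM and 490 ± 52.5 CPM) and Rgs11 (-3.68 ± 0.1) were lower. Rgs8, a regulator abundant in Purkinje cells, was higher (1370 ± 68.8 CPM in the cerebellum and 97.3 ± 10.9 CPM in the cortex), and so was the G protein subunit Gng13 (2.89 ± 0.06). Of 32 phosphodiesterases, cyclases and related genes, 17 were lower and 10 higher. The phosphodiesterases Pde1a (3.83 ± 1.02 CPM in the cerebellum and 199 ± 23 CPM in the cortex) and Pde1c (108.6 ± 15.7 CPM and 8.19 ± 2.81 CPM), near relatives, went opposite ways. Pde3a was higher (3.12 ± 0.16), and Pde11a (-3.46 ± 0.25) and the cyclic GMP kinase Prkg2 (-3.94 ± 0.11) were lower.

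Of 37 genes that neuronal activity induces, 24 were lower in the cerebellum, 4 were higher and 9 did not pass, with 20 and 1 past the 2-fold test (median -1.77). That is 75.7% called, against 78.9% of all genes, and 56.8% past the 2-fold test, against 20.6%. Egr3 (0 to 0.203 CPM in the cerebellum and 19.4 to 46.4 CPM in the cortex), Egr2 (0 to 0.126 CPM and 2.47 to 35.9 CPM) and Fosb (0.0859 to 1.51 CPM and 7.41 to 17.8 CPM), transcription factors induced within an hour of firing, were lower, as was the pentraxin Nptx2 given above. Egr1 was at 28 to 41.8 CPM in the cerebellum and at 135.2 to 547 CPM in the cortex, Arc, a synaptic plasticity protein, at 17.5 to 23.2 CPM and 76.4 to 530 CPM, and Npas4 at 1.93 to 7.03 CPM and 24.3 to 44.1 CPM. The cortex libraries thus spread over a wide range for Arc while the cerebellum libraries stayed together. Fos was at 9.69 to 52.9 CPM in the cerebellum and at 13.5 to 59 CPM in the cortex. Its groups overlapped, and the difference did not pass (-0.58 ± 0.34, edgeR adjusted p = 0.13). With the animal as a block it did (-0.62, adjusted p = 0.00017), and Fos was lower in the cerebellum in 10 of 10 animals. The animal with the highest Fos in the cerebellum (52.9 CPM) also had the highest in the cortex (59 CPM). Without that animal's cerebellum library and the cortex library of the same replicate number the difference passed (-1.01, edgeR adjusted p = 0.0023). That cortex library is from another animal and had the lowest Fos of the cortex (13.5 CPM). The genes higher in the cerebellum included the phosphatase Dusp5 (63.3 to 114.01 CPM in the cerebellum and 4.35 to 20.4 CPM in the cortex, 3.05 ± 0.28) and Jun (49.1 ± 8.31 CPM and 29.9 ± 5.86 CPM, 0.73 ± 0.09).

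**Figure D5:**
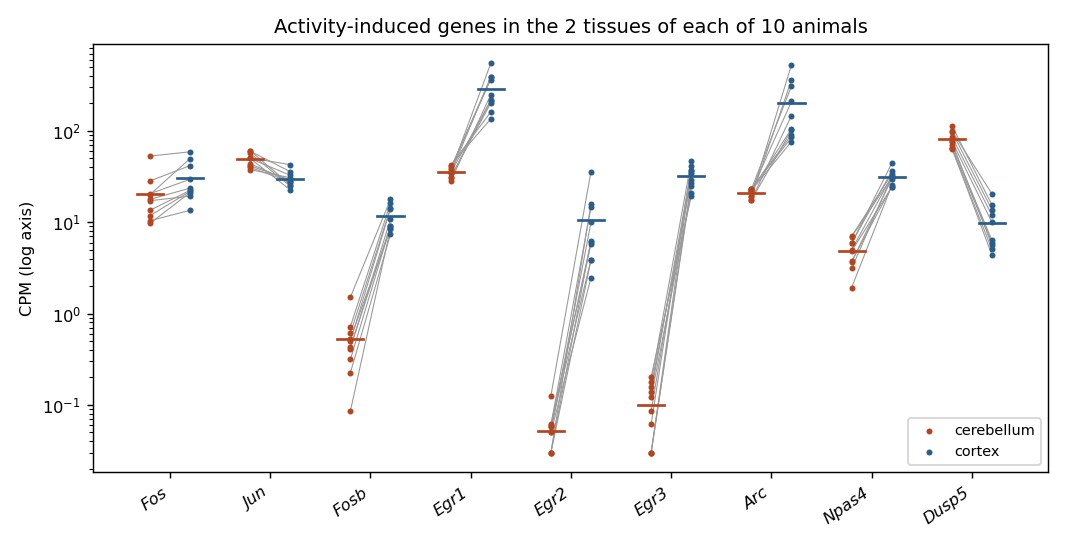
Each line joins the cerebellum (left) and the cortex (right) of one animal for the gene named below, with CPM on a log axis, bars for the means and values under 0.03 CPM drawn at 0.03. Egr1, Egr2, Egr3, Fosb, Arc and Npas4 are lower in the cerebellum without overlap, which holds in either direction for 46.4% of all genes tested. Fos is lower in each of 10 animals with overlapping groups, and Dusp5 is higher.

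Of 25 circadian clock genes, 12 were higher and 8 lower (80% called, against 78.9% of all genes, median 0.06). The nuclear receptors of the clock divided, with Rora (433 ± 26.3 CPM in the cerebellum and 96.8 ± 10.5 CPM in the cortex), a gene that Purkinje cells need, higher, and Rorb (10.4 ± 1.1 CPM and 54.6 ± 7.37 CPM), a layer 4 marker, lower. The activator Npas2 was lower (-3.58 ± 0.06).

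Of 54 ribosomal protein genes, 43 were lower and 0 higher in the cerebellum (79.6% called, against 78.9% of all genes), with 0 past the 2-fold test and a median of -0.41. Rplp1 had 119.05 ± 29 CPM in the cerebellum and 232 ± 43.5 CPM in the cortex, and Rps15 121.5 ± 9.49 CPM and 210 ± 18.3 CPM. The family has many pseudogene copies, and no source used here states how reads were divided among them. The 53 nuclear genes of oxidative phosphorylation were split, 18 higher and 22 lower (12 lower by library totals). There were 11 higher without the 6 cerebellum libraries with high Ttr, and also 11 with the blocks of library numbers as a covariate. The median of -0.02 became 0.08 when libraries were scaled by their totals alone. The share called was 75.5%, against 78.9% of all genes. Ndufb9 was lower (-0.56 ± 0.05), and Ndufb2 was higher (0.45 ± 0.06) in counts but not in FPKM (-0.06). All 15 tested genes of the mitochondrial chromosome were lower in the cerebellum (median -0.69), 2 of them past the 2-fold test. Of 23 cholesterol synthesis genes, 20 were lower and 2 higher (median -0.41). Cyp46a1, the neuronal enzyme that turns cholesterol over, had 26.9 ± 1.7 CPM in the cerebellum and 163 ± 13.8 CPM in the cortex, and the synthesis enzymes Msmo1 (-1.19 ± 0.08), Hmgcs1 (-1.17 ± 0.07) and Fdft1 (-1.16 ± 0.06) followed. Ebp, a sterol isomerase, was higher (1.07 ± 0.05). Of 10 tested genes of the kynurenine pathway, the route of tryptophan breakdown on which the drug acts, 4 were higher and 4 lower. The opening enzyme Tdo2 (6.71 ± 1.47 CPM in the cerebellum and 0.885 ± 0.291 CPM in the cortex) and the aminotransferase Kyat1 (25.9 ± 2.58 CPM and 9.82 ± 0.891 CPM) were higher, and Ido2 (-4.48 ± 0.16) and Afmid (-1.6 ± 0.13) lower.

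Of 45 chromatin genes, 29 were higher and 10 lower (median 0.48). Chd7, a remodeller needed for granule cell development, had 304 ± 24.8 CPM in the cerebellum and 16.7 ± 1.19 CPM in the cortex (4.18 ± 0.06), while its relative Chd5 had 48.6 ± 3.07 CPM and 328 ± 29.5 CPM (-2.75 ± 0.05). Satb1, a chromatin organiser, was lower (-1.83 ± 0.08). Of 40 RNA-binding proteins, 17 were higher and 15 lower (80% called and 20% past the 2-fold test, against 78.9% and 20.6% of all genes). The 8 that passed the 2-fold test were all lower. Khdrbs3 (11.3 ± 1.56 CPM in the cerebellum and 138.7 ± 16 CPM in the cortex), a splicing regulator of neurexins, Zcchc12 (-2.95 ± 0.2), Celf5 (-2.52 ± 0.05) and Celf6 (-2.32 ± 0.08) were the foremost. Of 65 axon guidance and cadherin genes, 41 were lower and 19 higher (median -1.09). The cadherins went both ways, with Cdh15 higher (46.1 ± 7.84 CPM in the cerebellum and 1 ± 0.237 CPM in the cortex) and Cdh9 lower (0.37 ± 0.108 CPM and 17.3 ± 2.83 CPM). The guidance genes Robo3 (-5.36 ± 0.12), a receptor, and Slit1 (-5.29 ± 0.11), a ligand, were lower, and the ephrin receptor Epha8 higher (2.96 ± 0.13).

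The difference between the tissues was compared between the sexes and between treatments. By an interaction term, 0 of 17279 genes differed in the tissue effect between females and males with edgeR, with 1449 at an unadjusted p under 0.05, and 5 with DESeq2. Those 5, named after their values were seen, were Cbarp (0.6 ± 0.11, log2 effect in females minus males, DESeq2 adjusted p = 0.0037), Ahcyl1, Acap3, Aldh1a3 and Tmem205. The tissue effect differed between vehicle and CHDI-00340246 animals in 0 of 17749 genes with edgeR, with 879 at an unadjusted p under 0.05, and in 3 with DESeq2. These were the predicted genes Gm26892, Gm26723 and Gm6768, with fitted log2 differences of 22.53, 6.19 and 22.15. Fitted values of that size are estimates and set no bound. A p that misses the threshold does not show that the effects are equal.

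The animals given CHDI-00340246, which share no library with the vehicle animals, repeated the comparison. There 6707 of 17321 genes were higher and 6601 lower in the cerebellum (38.7% and 38.1%), which is 76.8% together, and 1317 and 2186 past the 2-fold test (7.6% and 12.6%, or 20.2% together). Of 1385 genes over 2-fold higher in vehicle animals and tested in both, 1223 (88.3%) had the same call, and of 2136 over 2-fold lower, 2001 (93.7%). None of the 3521 had a call in the opposite direction at an adjusted p under 0.05. Across the 17124 genes tested in both, the log2 fold changes differed by a median of 0.08. The choroid plexus list was less separated there (7 higher and 1 lower, median 1.02, against 2.7 with vehicle), and the call for Ttr did not hold (2.12, edgeR adjusted p = 0.16).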

How the data were processed

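Specimens were flash frozen, and their RNA was isolated with a miRNeasy kit and sequenced by Illumina, per the labels. CASAVA 1.8.2 appears in the submitters' processing notes. No source used here names the program that aligned or counted reads, its use of strand or the build. The authors deposited a table of estimated counts per gene, in which 68.5% of values above 0 were whole numbers within 1e-06, and a table of FPKM, for 39179 Ensembl genes. Of these, 37693 received symbols and coordinates from GENCODE M21 (GRCm38). Count columns were joined to samples by library name, and Xist and Ddx3y matched the labelled sex in 160 of 160. FPKM columns were used by group only, because only 2 of 40 columns matched the counts under their own header best, while 40 of 40 matched counts of their own group best.

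Estimated counts were rounded to whole numbers. Genes passing edgeR's filterByExpr (17279, holding 99.96% of counts) were fitted with edgeR 4.0.16 (quasi-likelihood, robust, TMM, R 4.3.3), with means for each tissue and sex, and cerebellum was contrasted with cortex averaged over the sexes. A gene passed at a Benjamini-Hochberg adjusted p under 0.05, and the 2-fold test was glmTreat at a log2 change of 1. All p-values of the text that carry no other name are from this fit. It has no term for the animal and treats the 20 libraries as independent, although they are taken as 10 pairs. No library was left out of it. The biological coefficient of variation was 0.157. The scripts were run on simulated data with few genes changed, in both directions alike, and no animal effect. Such data could not check the scaling where most genes differ, or the pairing. The labels do not state that libraries come from separate animals or which share one. The specimen offset of 40 gave one genotype, sex and treatment in 40 of 40 sets of 4 tissues. Deviations from the group means correlated at 0.29 to 0.59 within the 10 specimen pairs over 11569 genes, 9 of them best with their own partner, and at -0.05 on average otherwise, so the specimen numbers were taken to pair the libraries. Replicate numbers of the labels match 3 of these pairs. Alternatives were DESeq2 1.42.0, RLE factors, library totals, no filter, no sex term, replicate or specimen blocks, and blocks of 40 consecutive library numbers. No label names these number blocks as a run or batch. Further alternatives were limma-trend 3.58.1 on log2 FPKM plus 1 or 0.1, each replicate left out, each sex alone and the CHDI-00340246 libraries. The last were 2 leave-outs chosen after seeing the data: cortex libraries with Adora2a over 5 CPM and cerebellum libraries with Ttr over 100 CPM.

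The libraries, the 39 gene lists and the tests were chosen with earlier results of these data known. Named genes are the 10 largest increases and decreases past the 2-fold test with at least 20 CPM in one tissue, leaving out predicted names; in each list the 4 passing members with the largest change and at least 2 CPM, with up to 2 against its majority; genes found in one tissue only; and subunit families. Other genes named (Snap25, Fos, Egr1, Arc, Npas4, Drd1, Adora2a, Tac2, Gm11549, Gm13944, Gm43517 and those called by the interaction in DESeq2) were added after their values were seen. Counts of sequenced reads give no molecule numbers, and limits such as 3 counts cover counting error only. Some genes that this rule takes are not reported here.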

Additional observations from a re-analysis of the deposited data

Results flagged for a closer look

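For the genes named, a library was noted where its gap to the nearest of the other 9 was over Dixon's 95% critical share of the range of its group. This was done gene by gene, so the highest or lowest library below can differ from gene to gene. For values that follow a normal distribution, chance gives this in about 1 in 20 groups. It was noted in 35 of 402 combinations of gene and group. Where only 1 library of a group had counts, as for Pax3 and Skor2 in the cortex and Ovol2 in the cerebellum, the rule was met by construction. The causes were not tested.

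In the cerebellum, genes of forebrain neurons each had 1 high library at low level, which was not the same library for all of them. Ddn stood at 3.06 CPM and Gda at 2.34 CPM in the same library, which also had the highest Drd1 of the cerebellum (0.631 CPM). Sst stood at 1.77 CPM, Tac1 at 0.961 CPM, Pdyn at 0.661 CPM and Rgs14 at 0.36 CPM in their highest library. Ovol2 reached 0.0507 CPM, Trbc2 0.0572 CPM and Dlx2 0.0315 CPM, each in its own highest library, which are single counts or a few. Uncx reached 26.2 CPM, Tfap2a 10.5 CPM, Pde1c 147.2 CPM, Gabrg1 23 CPM, Scn2b 473 CPM and Ndufb2 72.9 CPM in the highest cerebellum library. Among activity-induced genes, the highest cerebellum library had 52.9 CPM of Fos, 1.51 CPM of Fosb and 0.126 CPM of Egr2. One low cerebellum library was noted for Gabrb1 (16.7 CPM), Grin2a (16 CPM) and Grm4 (270 CPM).

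In the cortex, the highest library of each gene had 1.39 CPM of Cnpy1, 0.9 CPM of Otx2, 0.0824 CPM of Smpx, 0.0297 CPM of Pax3 and 0.0321 CPM of Skor2, all genes of the cerebellum. These were not all the same library, and the Pax3 and Skor2 values were 1 count each. The library with the highest Cnpy1 also had the highest Gabra6 (1.28 CPM) and Cbln3 (2.99 CPM) of the cortex. Calb2 reached 23.9 CPM, Dlx6os1 35.5 CPM, Scn3a 68.9 CPM, Syt9 12.4 CPM, Chrnb4 0.443 CPM, Cartpt 10 CPM, Spp1 14.4 CPM and Egr2 35.9 CPM in the highest cortex library. The lowest cortex library for Gabra4 had 112.1 CPM.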

How the results depend on the processing

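The counts of genes differing between the tissues stayed within 1.5 times of the reported ones under every alternative run except for the 2-fold test on FPKM with a pseudocount of 1, which called 1733 genes, 818 higher and 915 lower, against 3561, 1397 and 2164. A pseudocount compresses the fold changes of low genes. Leaving out each replicate in turn gave 13281 to 13582 genes at an adjusted p under 0.05 and 3501 to 3610 past the 2-fold test. With the replicate number as a block 6777 genes were higher and 6568 lower, and with the animal as a block, which the paired specimens call for, 6978 and 6763. Beside Fos, Grin2a and Ttr, the paired fit changed no call of a gene named in the report. Scaling by library totals alone moved the median of all genes to 0.11, and 57.7% of calls were then higher in the cerebellum, against 50.9%. DESeq2 called 5 genes for the interaction with sex and 3 for that with treatment, where edgeR called 0. Genes found in one tissue only numbered 2 in the cerebellum and 2 in the cortex with at most 1 count allowed, 20 and 45 with 10, and 27 and 63 with a minimum of 1 CPM. Of 201 genes examined for the text, 189 kept their direction and their side of the threshold under all 25 alternatives in which they could be tested. Ttr reversed without the 6 cerebellum libraries (-1.75), which were left out by their Ttr level. Ndufb2 reversed in FPKM (-0.06 and -0.07), and Grik3 in FPKM (0.04) and by library totals (0.04). Grin2d reversed in FPKM (0.01), in females alone (0.01), by library totals (0.02) and without replicate male 2 (0.0). The cause was not tested. Ttr also missed the threshold with the replicate block (3.65, adjusted p = 0.12), the animal as a block (3.6, 0.09) and males alone (4.3, 0.057). Fos passed without replicate female 2 (-1.01, 0.0023), a setting that leaves out the cerebellum library with the highest Fos and the cortex library with the lowest. Gabrb1 passed under 7 of the alternatives and Grin2a missed under 16. Genes at under 3 counts in a library are beyond what this depth can rank.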
